A study of Mus musculus with 8 samples.

Results

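The genes described here encode the tubulins, which are the building blocks of microtubules, and the enzymes that modify tubulin after it is made. They were chosen by symbol from the deposited table, which gave 47 of 55385 genes. They comprise 9 alpha tubulin genes (counting Tubal3), 8 beta tubulin genes, 2 gamma tubulin genes, 5 genes of the gamma tubulin complex, 3 genes of the tyrosine carboxypeptidase (Vash1, Vash2 and their partner Svbp), the tyrosine ligase gene Ttl, 13 Ttll genes and 6 deglutamylase genes (Agtpbp1 and Agbl1 to Agbl5). Pseudogenes named with "-ps" were left out.

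RNA-seq was done on left ventricle of male C57BL6 mice, with 4 libraries labelled Mst1-TG and 4 labelled WT. Mst1-TG mice carry an Mst1 transgene under the alpha-myosin heavy chain promoter, which drives it in cardiomyocytes, and are labelled as having experimental dilated cardiomyopathy. Mst1, encoded by Stk4, is the kinase at the top of the Hippo pathway. The protocols describe the controls as littermates without the transgene, and the study asked what Hippo activation changes in the failing heart. The series text gives the age as 3 weeks, the extraction protocol gives 3 months, and under growth the ages listed are 3 weeks and, for adults, 5.5 months, so the age of these animals is uncertain. The labels number the libraries without stating that each came from its own animal. The p-values therefore cover the differences among these 8 libraries, which may be technical in part.

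Microtubules are hollow polymers of alpha and beta tubulin pairs, and gamma tubulin in its ring complex nucleates them. Most alpha tubulins are made with a tyrosine at their end, which the vasohibins remove together with Svbp and which Ttl puts back. Ttll enzymes add side chains of glutamate or glycine to tubulin tails, and the deglutamylases remove glutamate. In cardiomyocytes, microtubules lacking the tyrosine are known to bear load, to stiffen the cell and to increase in failing hearts.

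The tails that these enzymes act on differ between tubulin genes, and are shown because the alpha genes called higher and lower in Mst1-TG do not share the same last codon. The last 48 bases of each coding sequence (15 codons and the stop codon, GRCm38, GENCODE M21) are given 5′ to 3′ for Tuba1c, Tuba4a and Tuba8, which differ in that codon, with the last codon before the stop in capitals. Tuba1c itself was not called. Tuba1a, the alpha gene called higher, is not shown and has TAC as its last codon.
Tuba1c: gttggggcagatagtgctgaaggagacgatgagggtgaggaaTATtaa
Tuba4a: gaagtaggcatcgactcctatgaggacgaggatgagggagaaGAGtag
Tuba8: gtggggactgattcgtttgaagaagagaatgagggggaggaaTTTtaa
These ends lie in the last coding exon at chr15:99037962-99038009 (plus strand) for Tuba1c, chr1:75215622-75215669 (minus strand) for Tuba4a and chr6:121226032-121226079 (plus strand) for Tuba8. Tuba1a, Tuba1b and Tuba1c end in a tyrosine codon, Tuba4a ends in a glutamate codon and Tuba8 ends in a phenylalanine codon. Tuba4a and Tuba8 are therefore made without the tyrosine that the carboxypeptidase removes.

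The beta tails are shown for Tubb4b, Tubb5 and Tubb2a, the most abundant beta tubulin genes here, and for Tubb2b, the near copy of Tubb2a.
Tubb2a: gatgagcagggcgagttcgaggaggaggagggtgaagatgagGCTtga
Tubb2b: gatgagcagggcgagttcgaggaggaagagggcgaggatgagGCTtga
Tubb4b: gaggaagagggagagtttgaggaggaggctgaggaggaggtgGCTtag
Tubb5: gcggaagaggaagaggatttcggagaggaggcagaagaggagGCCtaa
They lie at chr13:34074468-34074515 (minus strand) for Tubb2a, chr13:34127471-34127518 (minus strand) for Tubb2b, chr2:25222308-25222355 (minus strand) for Tubb4b and chr17:35834982-35835029 (minus strand) for Tubb5. Each of the 4 ends in an alanine codon. Of the 15 codons, 10 are for glutamate in Tubb4b, 9 in Tubb5 and 8 in Tubb2a and Tubb2b, and glutamates in this tail are what the Ttll enzymes extend.

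Of the 47 genes, 36 had enough reads to be tested, and 18 of those 36 (50.0%) passed edgeR's quasi-likelihood test at a Benjamini-Hochberg adjusted p of 0.05 over all 15314 genes tested. Of all genes tested, 42.3% passed, so the share among the tubulin genes was near that of the whole transcriptome. The 18 comprised 11 that were higher in Mst1-TG (21.2% of all genes tested were) and 7 that were lower (21.1%). Scaling by library totals alone moved the median log2 fold change of all genes tested to 0.29, against 0.0077 with TMM factors, and then 20 of the 36 were called higher and 5 lower. Mitochondrially encoded genes took 12.9 to 14.4% of counts in Mst1-TG and 21.4 to 23.8% in WT, and the TMM factors were 1.08 to 1.13 in Mst1-TG and 0.891 to 0.937 in WT. With TMM factors taken without mitochondrially encoded genes and the 20 most abundant other genes, 11 of the 36 were called higher and 7 lower. Of all genes tested, 3235 were then called higher and 3258 lower. Beyond that, the part of the mitochondrial difference in the results was not tested. In 20 of the 36 the groups did not overlap, a larger share than the 40.3% of all genes tested. The median log2 fold change was 0.085 over the 36. Levels are given as CPM, the count of a gene scaled to the TMM-adjusted size of its library. Of the 36, 33 were above the count filter's level of 0.459 CPM in all 8 libraries. Tubb1 passed the filter with 3 Mst1-TG libraries and 1 WT library above it, Agbl2 with 3 and 4, and Ttll13 with 3 and 2. The other 11, among them Tuba3a, Tuba3b, Tubal3, Ttll2, Ttll6, Ttll8, Ttll9, Ttll10, Agbl1 and Agbl4, held at most 26 counts over the 8 libraries together, and Ttll8 held 0.

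The libraries held 21193536 to 23809256 counts. Stk4 had 1563, 1747, 1449 and 1673 CPM in Mst1-TG 1 to 4, against 27.8, 25.2, 26.3 and 29.6 CPM in WT 1 to 4, so the libraries match their labels (log2 fold change 5.88 ± 0.10 (SE), adjusted p = 8.10e-13). Cardiomyocyte markers were abundant in every library, at 27741 to 37455 CPM summed over 8 genes in Mst1-TG and 39413 to 48129 CPM in WT, and 5 of the 8 were called lower. All 7 fibroblast markers were called higher, at 4575 to 6088 CPM in Mst1-TG and 1669 to 2038 CPM in WT. Of 6 endothelial markers 3 were called lower, of 7 smooth muscle and pericyte markers 1 was called higher and 3 lower, and the 7 macrophage markers were not called. Of 6 markers of proliferating cells 2 were called higher, the 4 red cell markers were not called, and the 1 ciliated-cell marker tested, Rsph1, was called higher. No listed marker was at 0 in all 8 libraries. The part of these cell types in the results was not tested. In bulk tissue, fewer cells of a type and less RNA per cell cannot be told apart.

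Among the alpha tubulins, Tuba1a rose, Tuba4a and Tuba8 fell, and Tuba1b and Tuba1c were not called. Tuba4a (ENSMUSG00000026202.13, chr1:75214228-75219865, minus strand) encodes the alpha tubulin whose last codon is for glutamate. It had 259, 131, 116 and 204 CPM in Mst1-TG 1 to 4, against 495, 857, 582 and 586 CPM in WT 1 to 4. Every Mst1-TG library was below every WT library, and the spread among the Mst1-TG libraries was more than 2-fold. The mean was 3.55-fold lower in Mst1-TG (log2 fold change -1.83 ± 0.30 (SE), adjusted p = 0.00162). Tuba8 (ENSMUSG00000030137.8, chr6:121210696-121226854, plus strand), known from heart, skeletal muscle and testis, had 112, 79.4, 68.8 and 95.5 CPM in Mst1-TG 1 to 4, against 161, 228, 185 and 152 CPM in WT 1 to 4. The groups did not overlap, and Tuba8 fell by 1.03 on the log2 scale (SE 0.17, adjusted p = 8.79e-04, edgeR).

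Tuba1a (ENSMUSG00000072235.6, chr15:98949837-98953703, minus strand), best known as the alpha tubulin of developing neurons, had 431, 292, 346 and 367 CPM in Mst1-TG 1 to 4, against 192, 235, 222 and 239.8 CPM in WT 1 to 4. Its lowest Mst1-TG library was above its highest WT library (log2 fold change 0.69 ± 0.11 (SE), adjusted p = 2.85e-04). Tuba1b (ENSMUSG00000023004.8), the ubiquitous alpha tubulin, had 458, 291, 331 and 396 CPM in Mst1-TG 1 to 4, against 329, 452, 388 and 389.8 CPM in WT 1 to 4. These groups overlapped and the gene was not called (log2 fold change -0.079 ± 0.14 (SE), adjusted p = 0.687). Tuba1c had 63.6, 44.6, 43.95 and 52.8 CPM in Mst1-TG 1 to 4, against 45.5, 48.4, 47.2 and 48.98 CPM in WT 1 to 4. It was not called either, with Mst1-TG 1 and 4 above all WT libraries and Mst1-TG 2 and 3 below them (log2 fold change 0.11 ± 0.10 (SE), adjusted p = 0.442).

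**Figure D1:**
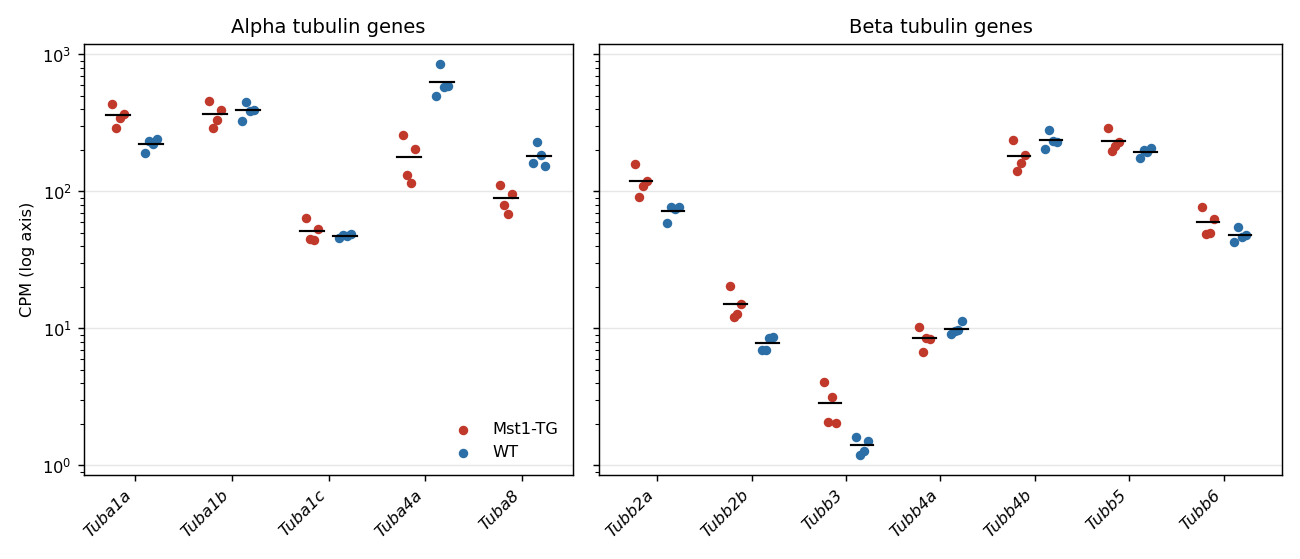
Level (CPM, on a log axis) of the tested alpha and beta tubulin genes other than Tubb1, with points for single libraries and short lines for the group mean. Tuba4a and Tuba8 lie lower in Mst1-TG than in WT, while Tuba1a, Tubb2a, Tubb2b and Tubb3 lie higher.

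The division of reads among the Tuba1 genes is uncertain, since their coding sequences are 97.6 to 98.4% identical. Of the 31-base words in their transcripts, 78.6% in Tuba1a, 78.7% in Tuba1b and 55.3% in Tuba1c also occur in transcripts of other genes. Added together, the 3 genes had 779 ± 139 CPM in Mst1-TG and 659 ± 70.3 CPM in WT (SD, n = 4 each), with overlapping groups. AC157548.1 holds 61.1% of the words of Tuba1b and 53.6% of those of Tuba1a. Gm49450 overlaps 22.7% of the exonic bases of Tuba1b and 26.2% of those of Tuba1a on the same strand. Reads assigned to AC157548.1 or Gm49450 are not in this sum. Tuba4a overlaps Stk16 on the opposite strand over 37.3% of its exonic bases, and the strand setting used in counting is not given in the sources used here. Stk16 itself had 32.1 ± 2.63 CPM in Mst1-TG and 30.6 ± 2.08 CPM in WT (SD, n = 4 each) and was not called (log2 fold change 0.068 ± 0.079 (SE), adjusted p = 0.524). Tuba8 likewise overlaps Gm15856 over 16.3% of its exonic bases.

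Per kilobase of transcript, which allows genes to be compared, the makeup of the alpha tubulin transcripts differed between the groups. Levels were divided by the median length of each gene's protein-coding transcripts and expressed as a share of the summed alpha tubulin level. Tuba4a made up 34.5, 28.6, 23.96 and 32.6% in Mst1-TG 1 to 4, against 60.1, 66.3, 60.4 and 60.7% in WT 1 to 4. The Mst1-TG libraries were all below the WT libraries, at 29.9 ± 4.65% in Mst1-TG and 61.9 ± 2.97% in WT (SD, n = 4 each). Tuba1a, Tuba1b and Tuba1c together, the genes ending in a tyrosine codon, made up 59.97, 64.9, 70.7 and 61.7% in Mst1-TG 1 to 4, against 32.6, 27.1, 32.4 and 33.4% in WT 1 to 4. Their share was 64.3 ± 4.72% in Mst1-TG and 31.4 ± 2.89% in WT, again without overlap. The share of Tuba8 was 5.77 ± 0.498% in Mst1-TG and 6.74 ± 0.636% in WT, and its groups overlapped at this length.

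The sizes of these shares depend on the length assigned to Tuba4a, whose 7 protein-coding transcripts have a median of 845 bases while the longest has 2840. That median is shorter than the Tuba4a coding sequence of 1347 bases, so it inflates the level per kilobase and the share of Tuba4a. With the longest transcripts, Tuba4a made up 11.3 ± 2.193% in Mst1-TG and 32.6 ± 2.88% in WT, and the Tuba1 genes 81.3 ± 2.59% in Mst1-TG and 55.4 ± 3.26% in WT. The groups still did not overlap for either. Tuba8 made up 7.31 ± 0.700% in Mst1-TG and 11.9 ± 1.10% in WT at the longest length and 8.53 ± 0.765% in Mst1-TG and 12.4 ± 1.10% in WT without division by length, and in both its groups did not overlap. In WT, Tuba4a had the highest level per kilobase of the alpha genes at the median length (745 CPM per kilobase, against 224 for Tuba1b), but at the longest length Tuba4a (222) and Tuba1b (224) did not differ beyond their spread. The summed alpha tubulin level was 686 ± 162 CPM per kilobase in Mst1-TG and 1197 ± 235 CPM per kilobase in WT at the median length, with no overlap. At the longest length it was 538 ± 108 CPM per kilobase in Mst1-TG and 673 ± 105 CPM per kilobase in WT, with overlap.

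Of the 8 beta tubulins, Tubb2a, Tubb2b and Tubb3 rose and the other 5 were not called. Tubb2a (ENSMUSG00000058672.7, chr13:34074274-34078007, minus strand), a major neuronal beta tubulin also found in other tissues, had 158, 91.7, 109 and 119.8 CPM in Mst1-TG 1 to 4, against 59.3, 77.5, 74.2 and 76.5 CPM in WT 1 to 4. Its near copy Tubb2b, whose coding sequence is 96.5% identical, had 20.2, 12.1, 12.7 and 15.1 CPM in Mst1-TG 1 to 4, against 6.99, 6.93, 8.56 and 8.67 CPM in WT 1 to 4. In neither gene did the groups overlap, and the log2 fold changes were 0.74 ± 0.16 for Tubb2a and 0.95 ± 0.16 for Tubb2b (adjusted p = 0.00393 and 4.50e-04, edgeR). The 2 genes share 51.1% of the 31-base words of Tubb2a, and their sum did not overlap either, at 135 ± 31.9 CPM in Mst1-TG and 79.6 ± 8.99 CPM in WT (SD, n = 4 each). The pseudogene Tubb2a-ps2, which was left out, holds 30.6% of the words of Tubb2a and 27% of those of Tubb2b. Reads assigned to Tubb2a-ps2 are not in this sum. Tubb3 (ENSMUSG00000062380.4), a neuronal marker, had 4.05, 2.07, 3.18 and 2.05 CPM in Mst1-TG 1 to 4, against 1.61, 1.19, 1.28 and 1.51 CPM in WT 1 to 4. All Mst1-TG libraries were higher than all WT libraries (log2 fold change 1.02 ± 0.26 (SE), adjusted p = 0.00633). Of 11 neuron and Schwann markers, 5 were tested and Dbh alone was called, lower, with the 11 summing to 21.4 to 24.5 CPM in Mst1-TG and 24.04 to 31.4 CPM in WT. Their part in the Tubb3 values was not tested.

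The other beta tubulins were not called, and several of their calls depended on 1 library. Tubb4b (ENSMUSG00000036752.4), widely expressed and known from cilia, had 239, 142, 160.3 and 185 CPM in Mst1-TG 1 to 4, against 206, 281, 232 and 231 CPM in WT 1 to 4. Only Mst1-TG 1 lay within the WT range (log2 fold change -0.39 ± 0.15 (SE), adjusted p = 0.0676). Without that library its log2 fold change was -0.55 (adjusted p = 0.00224), and over its alternatives the adjusted p ran from 0.00224 to 0.597. Of the 31-base words of Tubb4b, 53% occur in transcripts of other genes. Its pseudogenes Tubb4b-ps1 and Tubb4b-ps2, which were left out, hold 41% and 24.5% of them. Tubb5 (ENSMUSG00000001525.10), the ubiquitous beta tubulin, had 292, 196, 213 and 229 CPM in Mst1-TG 1 to 4, against 174, 199.8, 195 and 208 CPM in WT 1 to 4. Mst1-TG 2 lay within the WT range, and without it the log2 fold change was 0.33 with adjusted p = 0.0225 (range over alternatives 0.00176 to 0.547), against 0.26 and 0.077 with all libraries. Tubb6, known to increase in damaged muscle, had 77.02, 48.7, 49.9 and 62.6 CPM in Mst1-TG 1 to 4, against 43.1, 55.3, 46.3 and 48.4 CPM in WT 1 to 4. Mst1-TG 1 and 4 were above the WT range and Mst1-TG 2 and 3 were within it (log2 fold change 0.30 ± 0.14 (SE), adjusted p = 0.114), and without Mst1-TG 2 it passed at an adjusted p of 0.0485 (range over alternatives 0.00124 to 0.443).

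Tubb4a, a beta tubulin of the nervous system, had 10.3, 6.74, 8.48 and 8.32 CPM in Mst1-TG 1 to 4, against 9.11, 9.61, 9.75 and 11.4 CPM in WT 1 to 4. Mst1-TG 1 was inside the WT range and the others below it (log2 fold change -0.24 ± 0.13 (SE), adjusted p = 0.179). Without Mst1-TG 1 it passed at an adjusted p of 0.0474, and with library totals its sign turned to 0.049 (range of adjusted p over alternatives 0.0474 to 0.781). Tubb1, the beta tubulin of platelets, had 0.568, 0.389, 1.43 and 1.71 CPM in Mst1-TG 1 to 4, against 0.236, 0.310, 0.666 and 0 CPM in WT 1 to 4. These are a few reads per library and the groups overlapped (log2 fold change 1.73 ± 0.68 (SE), adjusted p = 0.0628), and without Mst1-TG 1, Mst1-TG 2 or WT 3 it passed (adjusted p = 0.0478, 0.0311 and 0.0269, over a range of 5.92e-04 to 0.164 for all alternatives). Of the platelet markers 4 of 6 were tested, and Ppbp and Itga2b were called higher while Pf4 and Gp1ba were not, at 25.7 to 38.5 CPM summed in Mst1-TG and 25.1 to 27.6 CPM in WT. Their part in the Tubb1 values was not tested.

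Per kilobase, Tubb2a and Tubb2b together made up 22.4, 20.9, 22.00 and 21.8% in Mst1-TG 1 to 4, against 13.3, 13.5, 14.6 and 14.7% in WT 1 to 4 of the summed beta tubulin level. The groups did not overlap, at 21.8 ± 0.630% in Mst1-TG and 14.01 ± 0.735% in WT (SD, n = 4 each). Tubb4b made up 30.4 ± 0.715% in Mst1-TG and 43.1 ± 2.16% in WT, and those groups did not overlap either. The division of reads between Tubb4b and its pseudogenes is uncertain, as is that between the Tubb2 genes and Tubb2a-ps2. Tubb5 made up 36.9 ± 1.32% in Mst1-TG and 33.2 ± 1.73% in WT. With the longest transcripts, Tubb5 made up 27.4 ± 1.13% in Mst1-TG and 24.3 ± 1.43% in WT. Tubb4b then made up 35.1 ± 0.635% in Mst1-TG and 48.9 ± 2.10% in WT. Which of Tubb5 and Tubb4b had the larger share in Mst1-TG therefore depends on the length used. The summed beta tubulin level was 372 ± 78.5 CPM per kilobase in Mst1-TG and 344 ± 33.3 CPM per kilobase in WT, with overlap.

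**Figure D2:**
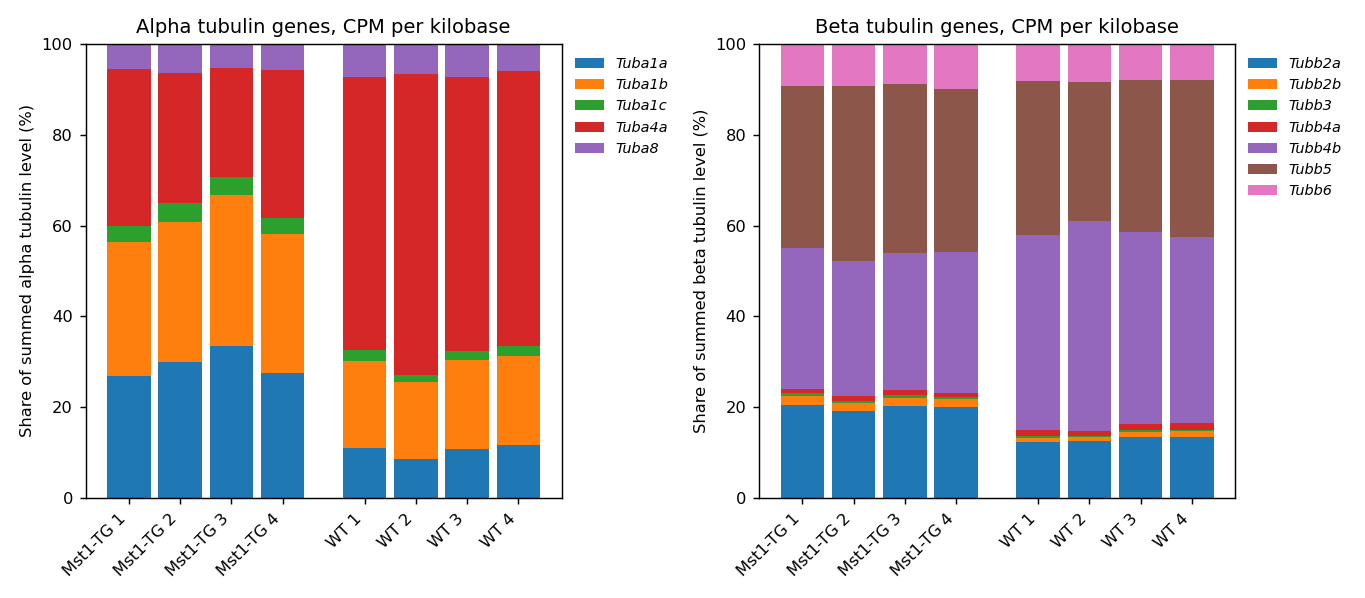
Share of each gene in the summed alpha (left) and beta (right) tubulin level, in percent of CPM per kilobase of median protein-coding transcript length, for each Mst1-TG and WT library. Tuba4a is at 29.9 ± 4.65% in Mst1-TG and 61.9 ± 2.97% in WT, and Tubb4b at 30.4 ± 0.715% in Mst1-TG and 43.1 ± 2.16% in WT. The median length inflates the share of Tuba4a, which at the longest length is 11.3 ± 2.193% in Mst1-TG and 32.6 ± 2.88% in WT. Tubb1 is not drawn.

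The alpha and beta tubulin genes tended to be high or low in the same libraries of a group. Mst1-TG 1 had the highest value of its group in 12 of the 13 tested alpha and beta genes (92.3%), against 29.4% of all genes tested and 7 of the 23 other members tested (30.4%). Mst1-TG 2 had the lowest value in 9 of the 13 (69.2%), against 26.2% of all genes tested. In WT, WT 1 was lowest in 9 of the 13 (69.2%), against 24.9% of all genes tested. These are descriptions of 8 libraries, with no test. The ratio of highest to lowest library within Mst1-TG had a median of 1.63 over the 13 genes and 1.28 over all genes tested, and within WT 1.30 over 12 of the genes and 1.25 over all genes tested.

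**Figure D3:**
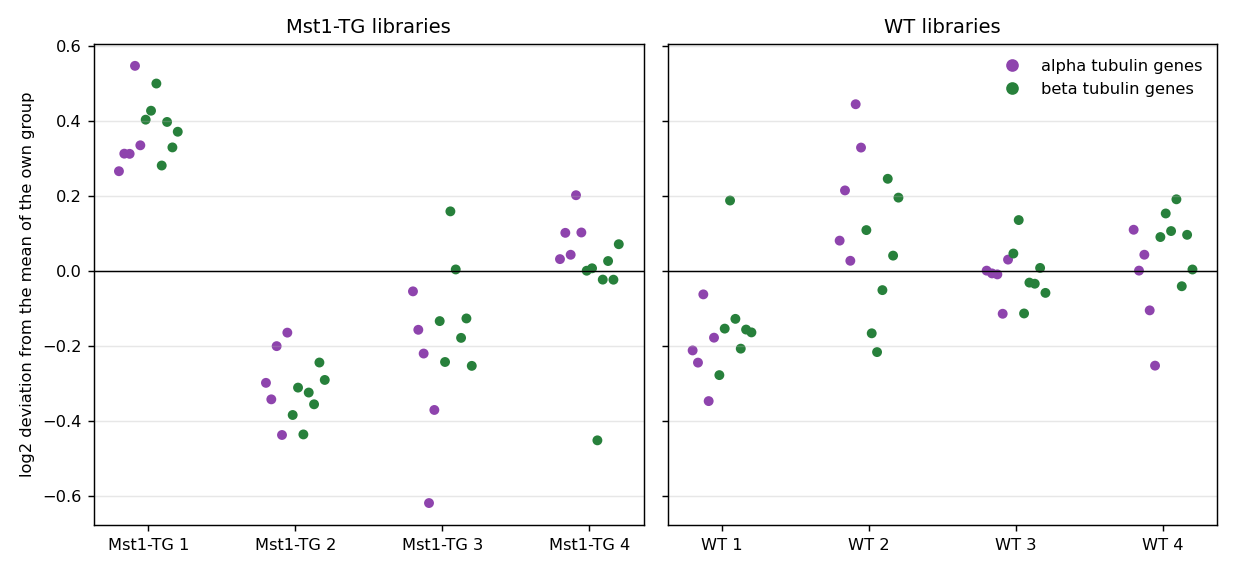
Difference of each library from its group mean, in log2 units of CPM plus 0.1, for the alpha and beta tubulin genes tested, without Tubb1. Mst1-TG 1 is above and Mst1-TG 2 below the group mean in all 12 of these genes, and the median deviations over the 13 genes with Tubb1 are 0.33 and -0.32.

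Of the 7 genes of gamma tubulin and its complex, Tubg2 and Tubgcp4 rose, Tubgcp2 and Tubgcp6 fell (with TMM factors, not with library totals), and Tubg1, Tubgcp3 and Tubgcp5 were not called. Tubg2 (ENSMUSG00000045007.9, chr11:101155907-101161787, plus strand), the second gamma tubulin gene, had 2.84, 2.03, 2.28 and 3.05 CPM in Mst1-TG 1 to 4, against 0.897, 0.775, 0.856 and 1.86 CPM in WT 1 to 4. The groups did not overlap, and WT 4 was highest among the WT libraries (log2 fold change 1.21 ± 0.29 (SE), adjusted p = 0.00448). Without WT 4 the log2 fold change was 1.59. Tubg1, the main gamma tubulin gene, had 17.8 ± 2.00 CPM in Mst1-TG and 21.4 ± 2.69 CPM in WT (SD, n = 4 each) and was not called (log2 fold change -0.27 ± 0.11 (SE), adjusted p = 0.0592), while without Mst1-TG 1 it passed (adjusted p = 0.0285, over a range of 0.0285 to 0.882 for all alternatives) and with library totals its sign turned. Of the 31-base words of Tubg2, 23.6% occur in Tubg1.

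In the ring complex, Tubgcp4, a subunit of the full ring, had 20.7, 20.6, 17.8 and 15.9 CPM in Mst1-TG 1 to 4, against 11.9, 14.6, 15.8 and 13.3 CPM in WT 1 to 4, and the groups did not overlap (log2 fold change 0.43 ± 0.11 (SE), adjusted p = 0.00765). Against a fold change of 1.2 it did not pass (adjusted p = 0.0898). Tubgcp4 shares 26.1% of its exonic bases with genes on the opposite strand. Tubgcp2 had 17.6, 20.5, 20.1 and 17.98 CPM in Mst1-TG 1 to 4, against 22.9, 23.9, 23.4 and 22.4 CPM in WT 1 to 4. Tubgcp6 had 17.03, 20.9, 17.3 and 18.1 CPM in Mst1-TG 1 to 4, against 22.7, 22.6, 21.9 and 21.7 CPM in WT 1 to 4. The groups overlapped in neither gene. Tubgcp2 belongs to the core of the complex and Tubgcp6 to the full ring, and both were called lower with TMM factors (log2 fold change -0.28 ± 0.077 for Tubgcp2 and -0.28 ± 0.082 for Tubgcp6, adjusted p = 0.00992 and 0.0152, edgeR), and with library totals their log2 fold changes were 0.0049 and 0.0077. Tubgcp3 and Tubgcp5 were not called, with log2 fold changes of -0.0079 and 0.14.

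The enzymes of the tyrosine cycle differed in their responses. Vash2 (ENSMUSG00000037568.12, chr1:190947646-190979296, minus strand), a tyrosine carboxypeptidase, had 5.15, 3.07, 3.22 and 4.18 CPM in Mst1-TG 1 to 4, against 1.04, 0.879, 1.14 and 0.857 CPM in WT 1 to 4. It was 3.99-fold higher in Mst1-TG with no overlap, the largest rise among the called tubulin genes (log2 fold change 1.99 ± 0.23 (SE), adjusted p = 1.29e-05). The WT libraries held only 17 to 24 counts of Vash2 each. Svbp, the small partner that both vasohibins need, had 21.7, 20.4, 24.6 and 20.9 CPM in Mst1-TG 1 to 4, against 17.6, 12.9, 18.2 and 17.6 CPM in WT 1 to 4. The groups did not overlap (log2 fold change 0.40 ± 0.11 (SE), adjusted p = 0.00968), though it did not pass when tested against a fold change of 1.2 (adjusted p = 0.125). Vash1, the more abundant vasohibin, had 35.1, 24.9, 30.3 and 30.2 CPM in Mst1-TG 1 to 4, against 30.1, 30.8, 36.7 and 47.3 CPM in WT 1 to 4, with overlapping groups (log2 fold change -0.26 ± 0.15 (SE), adjusted p = 0.183). Over its alternatives the log2 fold change of Vash1 ran from -0.35 to 0.017 and the adjusted p from 0.0167 to 0.936. Vash2 in Mst1-TG, at 3.90 CPM, remained below Vash1 at 30.1 CPM, and per kilobase of median transcript length the levels were 0.985 and 11.6 CPM per kilobase. Ttl, which puts the tyrosine back, had 31.9, 36.1, 33.1 and 31.8 CPM in Mst1-TG 1 to 4, against 35.5, 36.3, 32.8 and 36.8 CPM in WT 1 to 4. The groups overlapped and it was not called with TMM factors (log2 fold change -0.089 ± 0.069 (SE), adjusted p = 0.325), whereas with library totals its log2 fold change was 0.20 (adjusted p = 0.0303).

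Of the 8 Ttll genes tested, Ttll1 fell and Ttll7, Ttll11 and Ttll12 rose. Ttll1 (ENSMUSG00000022442.16, chr15:83483769-83510893, minus strand) is the catalytic subunit of the polyglutamylase complex. It had 12.5, 12.4, 12.6 and 13.7 CPM in Mst1-TG 1 to 4, against 64.1, 61.6, 65.2 and 53.01 CPM in WT 1 to 4. Every Mst1-TG library was below every WT library, and the mean was 4.77-fold lower in Mst1-TG (log2 fold change -2.25 ± 0.080 (SE), adjusted p = 1e-09). Only 2.7% of its 31-base words occur in other genes. Its partners in the complex were not called lower. Tpgs1, Tpgs2 and Nicn1, named for their place in it, had log2 fold changes of 0.19, 0.015 and -0.10, and were not called, although Tpgs1 passed without Mst1-TG 2 (0.25, adjusted p = 0.0332). Lrrc49 had 0.27 ± 0.10 at an adjusted p of 0.0498, a call lost in 11 alternatives, among them leaving out Mst1-TG 1, 3 or 4 or WT 1, 2 or 3 (0.24 to 0.29, adjusted p = 0.0636 to 0.125, and 7.38e-04 to 0.513 over all alternatives).

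Ttll7, which glutamylates beta tubulin, had 13.9, 15.2, 13.9 and 11.9 CPM in Mst1-TG 1 to 4, against 9.21, 6.82, 9.80 and 9.62 CPM in WT 1 to 4. The groups did not overlap (log2 fold change 0.63 ± 0.13 (SE), adjusted p = 0.00123). Ttll12, a family member with no known glutamylase activity, had 17.2, 12.95, 13.7 and 13.7 CPM in Mst1-TG 1 to 4, against 8.73, 11.6, 9.94 and 9.93 CPM in WT 1 to 4. All Mst1-TG values were above all WT values (log2 fold change 0.52 ± 0.12 (SE), adjusted p = 0.00326). Ttll11, a side-chain elongating glutamylase, had 6.45, 6.99, 6.89 and 6.06 CPM in Mst1-TG 1 to 4, against 4.11, 5.12, 5.85 and 3.93 CPM in WT 1 to 4. Its groups did not overlap either (log2 fold change 0.47 ± 0.15), and its call was lost without WT 1 (log2 fold change 0.41, adjusted p = 0.0616) and without WT 4 (0.39, adjusted p = 0.0535), with 0.0195 when all libraries were used and 6.98e-04 to 0.105 over all alternatives. The glycylase gene Ttll3, Ttll4 and Ttll5, which start glutamate chains, and Ttll13 were not called and had log2 fold changes between -0.39 and 0.39.

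Of the 4 deglutamylases tested, Agtpbp1 and Agbl2 fell and the others were not called. Agtpbp1 (ENSMUSG00000021557.15, chr13:59445742-59585227, minus strand), the enzyme that shortens long glutamate chains, had 42.7, 49.00, 37.5 and 40.5 CPM in Mst1-TG 1 to 4, against 85.2, 98.3, 86.3 and 88.4 CPM in WT 1 to 4. The highest Mst1-TG library was below the lowest WT library, and the mean was 2.11-fold lower (log2 fold change -1.08 ± 0.083 (SE), adjusted p = 3.50e-07). Agbl2 had 0.689, 0.820, 0.285 and 0.836 CPM in Mst1-TG 1 to 4, against 1.51, 1.65, 1.09 and 2.07 CPM in WT 1 to 4. All Mst1-TG values were below all WT values, in each case from few reads (log2 fold change -1.26 ± 0.34 (SE), adjusted p = 0.00898). Agbl3 and Agbl5, which removes the branch-point glutamate, were not called, with log2 fold changes of -0.024 and 0.062.

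**Figure D4:**
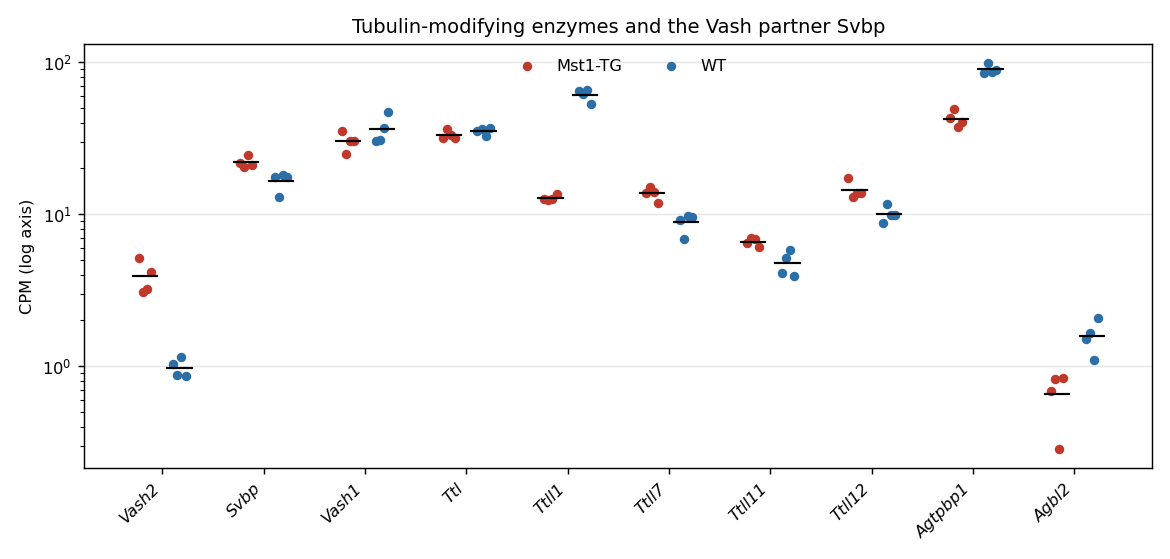
Level in CPM, on a log axis, of the enzymes of the tyrosine cycle with Svbp and of the called Ttll and deglutamylase genes, with points for single libraries and short lines for the group mean. Ttll1 and Agtpbp1 are lower in all 4 Mst1-TG libraries than in all 4 WT libraries, and Vash2 is higher in all 4.

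**Figure D5:**
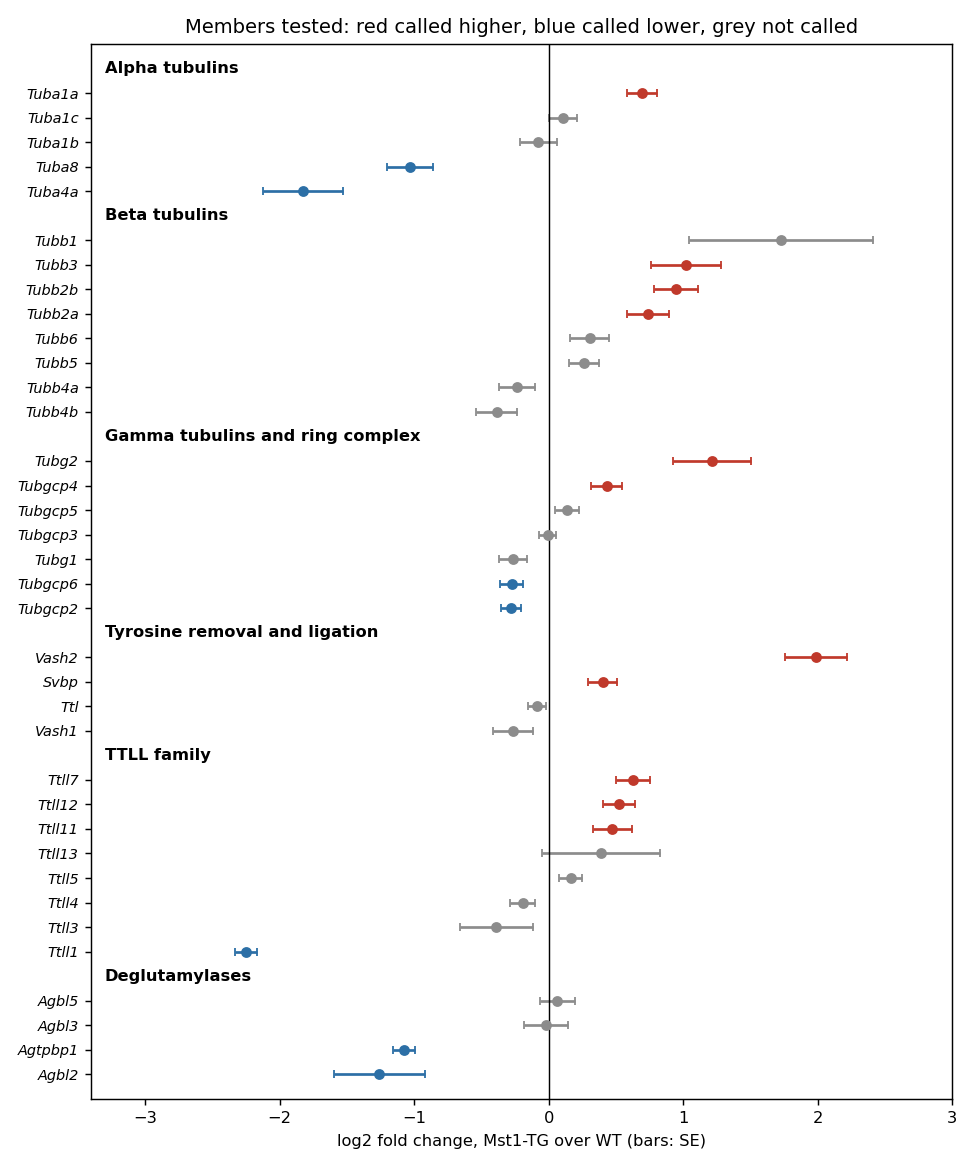
Log2 fold change (Mst1-TG over WT) with its SE for the 36 tubulin genes and enzymes tested, by role. The called genes run from -2.25 for Ttll1 to 1.99 for Vash2, and the negative values of Tubgcp2 and Tubgcp6 disappear when only library totals are used.

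Promoters were searched for the core sequence to which TEAD, the transcription factor below the Hippo pathway, binds, CATTCC, or GGAATG on the other strand. RefSeq promoters (GRCm38.p6, 300 bases each) were matched for 40 of the 47 genes, some of which have several, giving 49 promoters. Of the 49, 4 (8.16%) held it, against 14.7% of all 32851 promoters in the RefSeq table, and they belong to Tubb5, Ttll4, Vash2 and Agbl2. The 60 bases around it are shown for the 2 called genes in the direction of transcription, with the core in capitals.
Vash2: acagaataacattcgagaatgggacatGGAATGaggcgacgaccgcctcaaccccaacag
Agbl2: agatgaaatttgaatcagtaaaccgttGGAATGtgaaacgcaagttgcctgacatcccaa
Vash2 has 2 promoter windows and the match is in 1 of them (chr1:190979165-190979224, minus strand), and so does Agbl2 (chr2:90782604-90782663, plus strand). A match is a description of these letters and not a binding site.

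Genes that work with tubulin were counted in lists by role, to be read against the 42.3% of all genes tested that passed and their median log2 fold change of 0.0077. Of 22 tubulin folding genes tested, 3 were higher and 2 lower, with a median of -0.061. Tbcb and Tbcc, cofactors that fold tubulin, rose by 0.23 ± 0.062 and 0.41 ± 0.10 on the log2 scale. Tested against a fold change of 1.2 neither passed (adjusted p = 0.774 and 0.0922). The prefoldin genes Pfdn2 and Pfdn6 were called lower with TMM factors, and with library totals Pfdn2 turned to 0.038. Pfdn6 was at -0.51 ± 0.076 with TMM factors (adjusted p = 1.17e-04, edgeR) and at -0.23 with library totals (adjusted p = 0.0208). Of the 7 other modification genes, 3 were higher, with a median of 0.19. Atat1, which acetylates alpha tubulin, rose by 0.67 ± 0.12, and Hdac6, which removes the acetyl group, by 0.63 ± 0.079, on the log2 scale. Of the 2 other tubulin families, Tube1 passed (log2 fold change 1.18 ± 0.42, adjusted p = 0.0387), a call lost in 9 alternatives, among them leaving out Mst1-TG 1, 3 or 4 or WT 1, 3 or 4 (log2 fold change 0.87 to 1.22, adjusted p = 0.0555 to 0.127), and Tubd1 was not called.

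Among the microtubule-associated proteins and MARK kinases, 6 of 19 tested were higher and 3 lower, with a median of 0.15. Map1a, which binds along microtubules and is best known in neurons, had the largest rise, with 122 ± 22.2 CPM in Mst1-TG and 15.03 ± 1.58 CPM in WT (SD, n = 4 each, log2 fold change 3.02 ± 0.13 (SE), adjusted p = 3.43e-08). Map6, which stabilises microtubules, had 25.6 ± 1.80 CPM in Mst1-TG and 10.4 ± 1.34 CPM in WT (log2 fold change 1.30 ± 0.10 (SE), adjusted p = 3.64e-07). Map1b rose by 0.95 ± 0.087 and Map7, a kinesin activator, fell by 0.64 on the log2 scale (by 0.36 with library totals). Of 10 destabilising and severing proteins tested, 1 was higher and 1 lower (median 0.088), with Fign, a severing enzyme, at -0.75 ± 0.20 and Spast, another, at 0.22 ± 0.062. Fign lost its call with library totals (-0.47, adjusted p = 0.0622), and Spast when tested against a fold change of 1.2 (adjusted p = 0.806). Of 11 end-binding proteins, 6 were higher and 1 lower (median 0.16), with the plus-end tracking proteins Clip1 at 0.45 ± 0.073 and Clip2 at 0.63 ± 0.12, and Clasp1, which stabilises growing ends, at -0.50 ± 0.10. Clasp1 lost its call with library totals (-0.22, adjusted p = 0.0712). Of 27 transport motor genes tested, 11 were higher and 4 lower, with a median of 0.14. Kif1a, a kinesin known from axons, had 15.7 ± 2.89 CPM in Mst1-TG and 3.03 ± 0.535 CPM in WT (log2 fold change 2.37 ± 0.17 (SE), adjusted p = 1.63e-07), and Kif5c, a neuronal kinesin heavy chain, had 4.43 ± 0.841 CPM in Mst1-TG and 1.19 ± 0.406 CPM in WT (log2 fold change 1.89 ± 0.24 (SE), adjusted p = 3.61e-05). Kif5b, the widespread kinesin heavy chain, rose by 0.53 ± 0.070 on the log2 scale.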

How the data were processed

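The authors deposited 1 table of estimated counts per gene, not scaled for library size. Values were rounded to whole numbers before the fit. Per the submitters' processing notes, bcl2fastq 2.19.1.403 and kallisto 0.46.0 were used. Build, annotation and strand setting: not given in the sources used here. kallisto divides reads shared by near-identical genes, so the values of such genes are uncertain. The libraries held 21193536 to 23809256 counts.

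Genes were filtered with filterByExpr (minimum count 10, total 15), which left 15314 of 55385, scaled by TMM and compared with edgeR 4.0.16's quasi-likelihood test (robust) in R 4.3.3, with Benjamini-Hochberg adjustment over all genes tested and a threshold of 0.05. The fit used group alone, 4 libraries each; no 2 libraries of a group agreed within counting noise, with chi-square values of 7.96 to 23.9 per degree of freedom. CPM are TMM-scaled, and errors of log2 fold changes are SE. The biological coefficient of variation was 11.4% and the median SE 0.111. Levels per kilobase used GENCODE M21 median coding transcript lengths. DESeq2 1.42.0, limma 3.58.1, other normalizations, filters, lengths and left-out libraries were alternatives. The fit was tested on simulated data.

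The members and lists were chosen with earlier results of these data known. Named genes: every alpha and beta tubulin, Ttl, Vash1, Vash2 and Svbp tested, up to 5 passing members of each other role and up to 4 genes of smallest p in each list. Protein sequences were not used here. Some items are not reported here.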

Additional observations from a re-analysis of the deposited data

Results flagged for a closer look

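In groups of 4 libraries, 106 groups of values were checked for a library far from the others, and 10 stood out; chance gives about 1 in 20. Beyond the shares, the following single libraries stood apart, in CPM. Ttll1 was 13.7 in Mst1-TG 4, against 12.4 to 12.6 in the other Mst1-TG libraries. Agbl3 was 2.68 in Mst1-TG 1, against 3.41 to 3.55 in the others. Ttll13 was 0.243 in Mst1-TG 1, against 0.612 to 0.648. Svbp was 12.9 in WT 2, against 17.6 to 18.2 in the other WT libraries. Tubg1 was 25.4 in WT 2, against 19.9 to 20.5. Tubg2 was 1.86 in WT 4, against 0.775 to 0.897.

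The shares of the summed alpha tubulin level in WT 2, at the median transcript length, also stood apart. Tuba4a made up 66.3% in WT 2, against 60.1 to 60.7% in the other WT libraries. Tuba1b made up 16.96%, against 19.3 to 19.6%, and Tuba1a, Tuba1b and Tuba1c together 27.1%, against 32.4 to 33.4%. The genes ending in a tyrosine codon, which are the same genes with the barely detected Tuba3a and Tuba3b, also made up 27.1%, against 32.4 to 33.4%.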

How the results depend on the processing

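Of the 18 called members, 13 kept their call in every alternative in which they were tested, which was 17 for all but Agbl2 (16, since the stricter filter removed it). The others (Ttll11, Tubgcp2, Tubgcp4, Tubgcp6 and Svbp) lost it in at least 1, and 13 members not called passed in at least 1. With library totals only, 20 members were higher, and 7409 of all genes tested were called higher and 1592 lower, against 3244 and 3238 with TMM. The sign then turned for Tubgcp3 (0.28), Vash1 (0.017), Tuba1b (0.21), Tubgcp2 (0.0049), Ttl (0.20), Ttll4 (0.091), Tubg1 (0.019), Agbl3 (0.26), Tubgcp6 (0.0077), Tubb4a (0.049), Pfdn2 (0.038), Tubd1 (0.018) and Katnal1 (0.021), on the log2 scale. Requiring a fold change of 1.2 called 1897 genes higher and 1925 lower. Leaving out each library in turn gave 10 to 14 members higher and 7 to 10 lower, and log2 fold changes of -0.023 to 0.0016 for Tubgcp3, -0.20 to 0.019 for Tuba1b, -0.068 to 0.064 for Agbl3 and -0.013 to 0.17 for Tuba1c. The cause was not tested.

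At the longest transcript length the difference in share (Mst1-TG minus WT, percentage points) was 25.9 for the Tuba1 genes, -21.3 for Tuba4a and 9.21 for Tubb2a with Tubb2b, and without division by length it was -25.9 for Tuba4a. Libraries of equal number are not said to be paired, and the correlations of their deviations were -0.14, 0.075, 0.018 and -0.018, with not every library correlating best with its own number. With the replicate block, 11 members were higher and 7 lower, and 3064 and 3123 of all genes. Depth limits Tubb1, Agbl2, Ttll13 and the 11 untested genes. Counts per WT library were also low for the called genes Vash2 (17 to 24), Tubg2 (15 to 37) and Tubb3 (23 to 34).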
